A study of Mus musculus with 96 samples.

Results

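Tgm1, Tgm2 and F13a1 encode enzymes of the transglutaminase family. They were taken by their symbols, 3 of the 32594 genes listed in each count table, and were chosen by the measured level of Tgm1, for its very large rise after brain injury in these libraries. The injury comparisons of Tgm1, and those of all 3 genes in the hippocampus at 3 days post injury (dpi), are therefore described without a test. Bulk RNA-seq libraries were made from the ipsilateral hippocampus, thalamus and hypothalamus of male C57BL/6 mice, 8 to 10 weeks old as obtained. Mice received a controlled cortical impact (TBI) or a sham procedure that left the skull intact (Sham), so that the opening of the skull and the impact cannot be told apart. They were given candesartan (CD), a blocker of the angiotensin II type 1 receptor, or vehicle (VH), with a first injection 6 h after injury. In the 3 dpi groups further injections followed at 24 h and 48 h, and in the 29 dpi groups an osmotic pump was placed at 24 h, with 0.1 mg/kg/day of candesartan in the treated mice. Each of the 24 groups (Sham + VH and TBI + VH, then Sham + CD and TBI + CD, in each region at each time) held 4 libraries, 96 in all, from the samples with the best RNA of each group. Libraries carry numbers 1 to 4 within a group, without a word on whether the regions of 1 mouse share a number, and the p-values below measure the spread between these libraries.

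Transglutaminases join glutamine and lysine side chains of proteins into a bond that resists proteases, using a cysteine in the active site and calcium. Tgm1 is best known from skin, where it builds the cornified envelope of keratinocytes. Tgm2 is found in many tissues, vessel endothelium among them, and also binds guanine nucleotides, fibronectin and integrins. F13a1 encodes the catalytic A subunit of coagulation factor XIII, which ties fibrin strands together in a clot, and is known from platelets and from some macrophages.

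All 3 genes code for the same 4 residues around the catalytic cysteine (glycine, glutamine, cysteine, tryptophan). Stretches of 60 coding bases around that site were read from the mouse GENCODE transcripts of GRCm38 and are printed 5′ to 3′ on the coding strand, with the 4 codons in capitals.
Tgm1: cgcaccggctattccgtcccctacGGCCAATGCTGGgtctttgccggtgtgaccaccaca
Tgm2: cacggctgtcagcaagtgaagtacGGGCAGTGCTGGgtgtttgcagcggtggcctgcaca
F13a1: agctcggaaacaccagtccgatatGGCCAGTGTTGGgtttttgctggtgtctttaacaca
The cysteine is codon 376 of Tgm1, codon 277 of Tgm2 and codon 315 of F13a1. Tgm1 and Tgm2 were identical at 37 of the 60 bases, Tgm1 and F13a1 at 38, and Tgm2 and F13a1 at 31. Codons for the same 4 residues occurred once in the coding sequences of Tgm3, Tgm4, Tgm5, Tgm6 and Tgm7. They did not occur in Epb42, a family member of the red cell membrane known to lack the enzyme activity, or in F13b, the carrier subunit of factor XIII, which is no transglutaminase.

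All 3 genes lie on the minus strand of GRCm38. Tgm1 spans chr14:55700009-55713926, Tgm2 chr2:158116402-158146436 and F13a1 chr13:36867178-37050244, and their annotated exons cover 3162, 4608 and 6739 bases. Genes on the opposite strand share 182 exon bases with Tgm1 (Gm49067), 370 and 633 with Tgm2 (Rprd1b and Gm20412) and 74 with F13a1 (Gm30489), and the strand setting of the read counting is not given in the sources used here. The RefSeq promoter table (250 bases before to 50 after a start site, GRCm38) held windows for Tgm1 and F13a1. None of these windows held, on either strand, the letters TGACTCA (AP-1), TTCCNGGAA (STAT3), TTGCGCAA (C/EBP) or the 1 NF-kB string searched, which 5.20%, 1.15%, 0.183% and 0.155% of the 32851 promoters in that table hold. The wider STAT pattern TTCNNNGAA, added after the data were seen, occurred 2 times in 1 of the Tgm1 windows and in neither F13a1 window, and 8.30% of the promoters hold it. A match of letters is a description and not a site.

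The libraries held between 17150610 and 31253784 counts at 3 dpi and between 6663629 and 38589791 at 29 dpi. Levels are given as CPM, that is counts relative to the library total, scaled with TMM factors over the 48 libraries of a time point, and 3 counts, taken here as the floor of detection in a library, corresponded to 0.0777 to 0.450 CPM. Thalamic neuron markers set the regions apart, at 1355 to 2628 summed CPM in the thalamus against 518.8 or less elsewhere, and hypothalamic markers reached 658 or more in every hypothalamic library against up to 643.7 in 1 thalamic library. Hippocampal neuron markers were higher in every hippocampal library at 29 dpi, and at 3 dpi they overlapped between regions, with 361 to 760.2 in the hippocampus and up to 408 in the hypothalamus. Choroid plexus markers varied widely between libraries of 1 group, for example from 186 to 6909 summed CPM in hippocampal Sham + VH at 3 dpi against 7.16 to 151 in TBI + VH. In bulk tissue, fewer cells of a type and less RNA per cell cannot be told apart.

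Tgm1 was at the edge of detection in the sham hippocampus and clearly detected in every injured one. At 3 dpi its level in Sham + VH was 0.0426, 0.134, 0.0440 and 0.195 CPM, from 1, 3, 1 and 5 counts. In TBI + VH it was 73.4, 18.9, 91.6 and 53.0 CPM, from 1693, 354, 2455 and 1388 counts. All 4 injured libraries stood far above all 4 sham libraries, and the lowest of them still held 354 counts.

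With candesartan the groups stood apart at 3 dpi in the same way. Sham + CD gave 0.0988, 0.0435, 0.0529 and 0.0461 CPM of Tgm1, from 1 or 2 counts each. TBI + CD gave 32.8, 29.4, 109 and 63.4 CPM. The groups did not overlap, which held for 10.1% of genes in the direction of injury with vehicle and 15.3% with candesartan, and the spread among the injured libraries was wide with both treatments (59.2 ± 31.2 CPM in TBI + VH and 58.7 ± 37.1 CPM in TBI + CD, SD, n = 4).

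**Figure D1:**
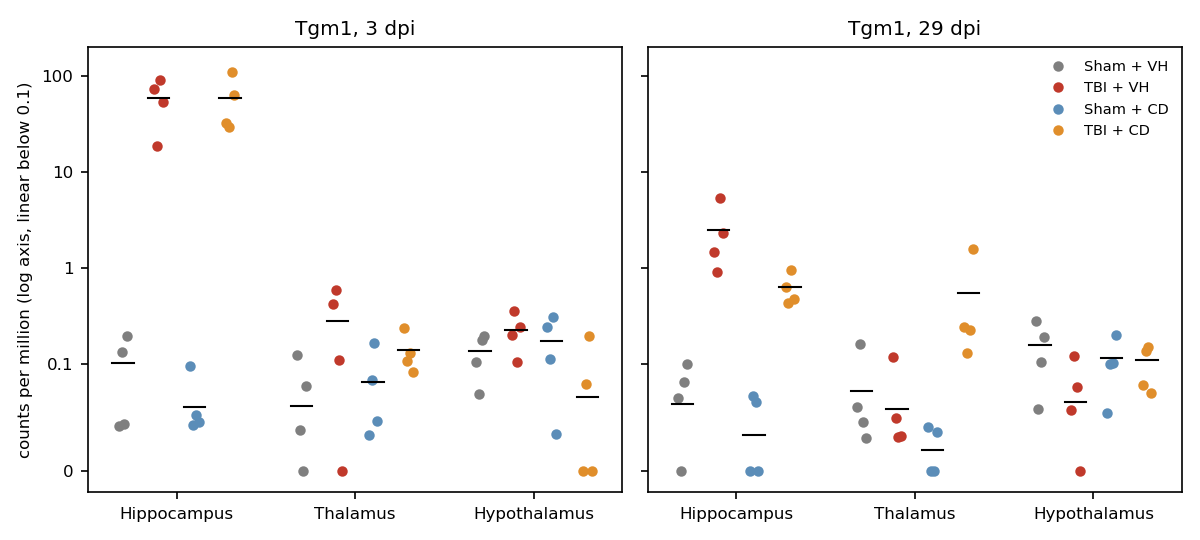
Tgm1 in CPM (log axis, linear below 0.1) in every library at 3 dpi and 29 dpi, by region and group; points are libraries and bars are group means of 4. The injured hippocampal libraries lie between 18.9 and 109 CPM at 3 dpi and between 0.435 and 5.39 CPM at 29 dpi, above all sham hippocampal libraries of the same time.

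From the summed counts, Tgm1 was 586 times higher in TBI + VH than in Sham + VH (95% exact counting interval 318 to 1223, from 5890 and 10 counts) and 1023 times higher in TBI + CD than in Sham + CD (438 to 3152, from 5789 and 5 counts). These intervals cover counting error only, and the breadth comes from the few sham counts. The edgeR fit, in which the value against so few sham counts depends on the prior count, gave log2 fold changes of 9.10 (SE 0.80) with vehicle and 9.87 (SE 0.88) with candesartan, and 8.08 with vehicle when the choroid plexus markers were a covariate. Among the 16756 genes tested in the 3 dpi hippocampus, 8.99% were called higher after injury with vehicle and 14.4% with candesartan. A gene is called here if its Benjamini-Hochberg adjusted p (FDR) is below 0.05 and its log2 fold change exceeds 0.32 in size, and for the injury contrasts of Tgm1 these shares are printed only as the background.

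At 29 dpi Tgm1 was still detected in every injured hippocampal library, at far lower levels. Sham + VH held 0.0686, 0, 0.0838 and 0.100 CPM, and TBI + VH held 1.47, 0.909, 5.39 and 2.32 CPM, from 33, 10, 77 and 75 counts. Sham + CD held 0, 0.0703, 0.0643 and 0 CPM, and TBI + CD 0.635, 0.435, 0.968 and 0.483 CPM, from 14, 14, 28 and 12 counts. Injured and sham libraries did not overlap with either treatment, as for 2.44% of genes being higher with vehicle and 4.46% with candesartan.

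The ratio of summed counts at 29 dpi was 33.5 with vehicle (95% counting interval 15.1 to 92.5) and 14.2 with candesartan (5.30 to 53.6). The fitted log2 fold changes were 5.03 (SE 0.65) and 3.69 (SE 0.77), and the vehicle value was 4.41 without TBI + VH replicate 3, the highest library. The 2 time points came in separate tables, so that the levels of 59.2 ± 31.2 CPM at 3 dpi and 2.52 ± 2.0 CPM at 29 dpi (SD, n = 4, TBI + VH) stand side by side without a test.

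Outside the hippocampus Tgm1 held 15 counts or fewer in every library other than 1 of the 29 dpi thalamus, described further on. In the thalamus at 3 dpi, TBI + VH held 0.425, 0.599, 0.112 and 0 CPM from 9, 15, 3 and 0 counts, against 0 to 0.124 CPM in Sham + VH, and the groups overlapped. In the hypothalamus the highest library reached 0.363 CPM at 3 dpi and 0.284 CPM at 29 dpi, the latter a Sham + VH library. Tgm1 passed the filter on low counts in 2 of the 6 region and time sets, both hippocampal, and it passed there through the injured groups, while Tgm2 and F13a1 passed in all 6.

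Tgm2 was detected in all 96 libraries, at 5.82 to 36.8 CPM. In the 3 dpi hippocampus it was 15.6, 14.9, 12.6 and 19.6 CPM in Sham + VH and 25.1, 21.0, 27.2 and 16.6 CPM in TBI + VH. Sham + CD gave 17.8, 13.7, 12.7 and 14.1 CPM, and TBI + CD 26.4, 18.5, 36.8 and 25.6 CPM. With vehicle the injured and sham libraries overlapped, since TBI + VH replicate 4 lay below Sham + VH replicate 4. With candesartan every injured library was above every sham library, as were 15.3% of all genes tested in that comparison. The fitted log2 fold changes were 0.55 (SE 0.19) with vehicle and 0.93 (SE 0.19) with candesartan.

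F13a1 was low in all 96 libraries, at 0.876 to 6.68 CPM. In the 3 dpi hippocampus it was 1.83, 1.47, 1.41 and 2.49 CPM in Sham + VH and 4.08, 2.61, 3.25 and 2.90 CPM in TBI + VH. Sham + CD gave 1.78, 1.22, 1.64 and 0.876 CPM, and TBI + CD 2.93, 2.27, 6.68 and 5.16 CPM. Injured and sham libraries did not overlap with either treatment, although TBI + VH replicate 2 at 2.61 CPM was close to Sham + VH replicate 4 at 2.49 CPM, and 10.1% of genes with vehicle and 15.3% with candesartan were likewise higher without overlap. The fitted log2 fold changes were 0.86 (SE 0.31) and 1.69 (SE 0.32), from 19 to 64 counts in sham libraries and 49 to 176 in injured ones. With the choroid plexus markers as a covariate the vehicle value of F13a1 was 0.55.

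**Figure D2:**
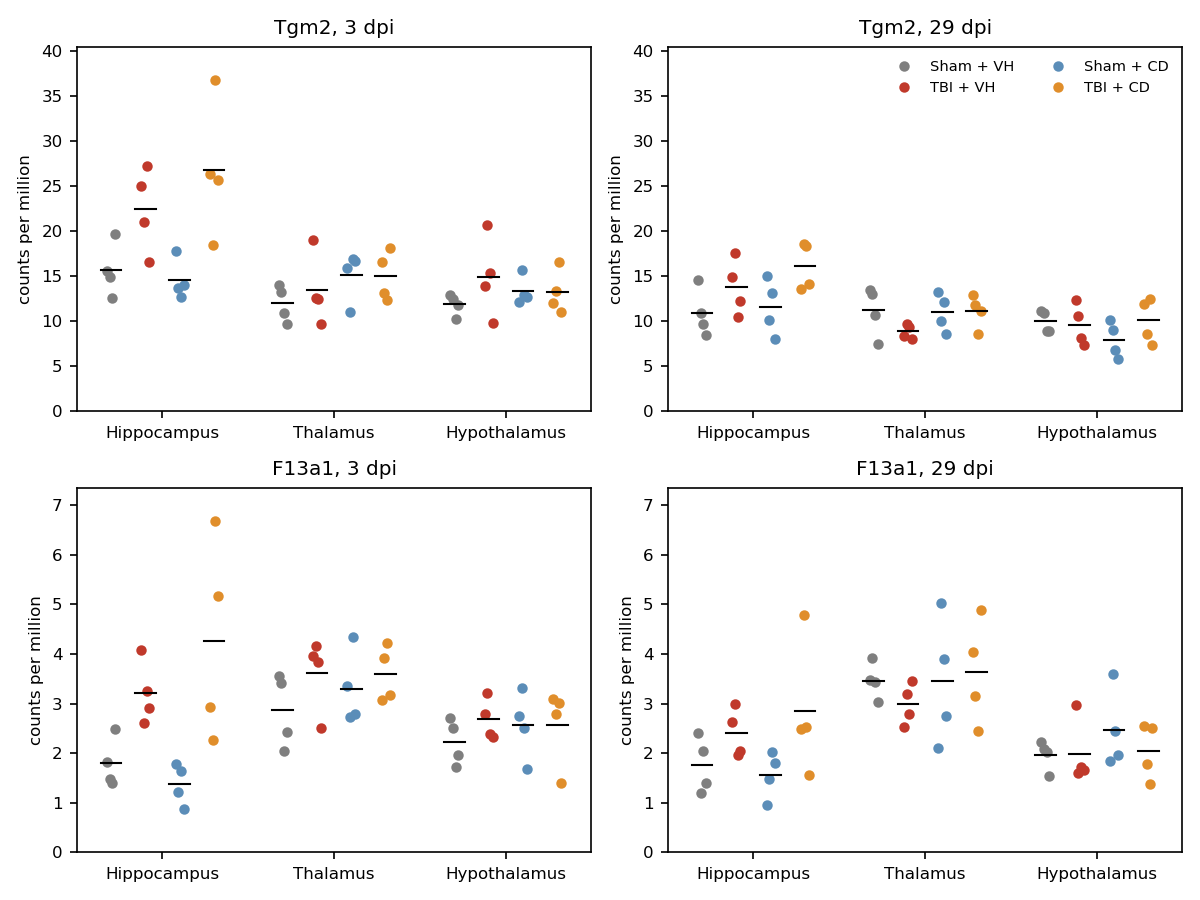
Tgm2 (top) and F13a1 (bottom) in CPM on linear axes from 0, in every library by region and group at 3 dpi and 29 dpi; points are libraries and bars are group means of 4. Tgm2 reaches 36.8 CPM and F13a1 6.68 CPM, both in TBI + CD replicate 3 of the 3 dpi hippocampus.

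Seen per kilobase of exon, so that genes can be set beside each other, the order of the 3 genes changed with injury at 3 dpi. In the Sham + VH hippocampus at 3 dpi the mean level was 3.41 CPM per kb for Tgm2, 0.267 for F13a1 and 0.0328 for Tgm1. In TBI + VH it was 18.7 CPM per kb for Tgm1, 4.87 for Tgm2 and 0.476 for F13a1. At 29 dpi the order in TBI + VH was Tgm2 (2.99 CPM per kb), Tgm1 (0.798) and F13a1 (0.358), so that Tgm2 led again and Tgm1 still lay above F13a1, unlike in Sham + VH of that time (2.37 for Tgm2, 0.261 for F13a1 and 0.0200 for Tgm1). This is an order of means, and that of Tgm1 in TBI + VH drew on replicate 3, at 5.39 CPM against 0.909 to 2.32 CPM in the others. In TBI + CD at 29 dpi Tgm1 (0.199 CPM per kb) lay below F13a1 (0.422) and Tgm2 (3.51), the order of the sham groups.

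The rise of Tgm1 in the 3 dpi hippocampus came with markers of several cell types, whose part in it was not tested. The 8 microglia markers summed to 244 to 263 CPM in Sham + VH and 464 to 734 in TBI + VH, and all 8 were called higher, where 8.99% of all genes were called higher with vehicle and 1.72% lower. The 9 border macrophage markers went from 19.8 to 27.0 summed CPM to 48.7 to 93.5, with 5 called higher. The 13 shared reactive astrocyte genes went from 409 to 637 summed CPM to 3818 to 6713, with 11 called higher. Of 11 reactive astrocyte genes known from ischemia, the set in which Tgm1 itself is known, 10 were tested and 7 were called higher (median log2 fold change 1.20), and of 12 known from inflammation 11 were tested and 7 called higher (median 0.96). Of 8 markers of monocytes and infiltrating macrophages 6 were tested and 3 called higher (median 1.61).

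Markers of keratinocytes, platelets and endothelium were followed in the same libraries, in which 8.99% of all genes were called higher and 1.72% lower with vehicle, and 14.4% and 5.67% with candesartan. Of the 6 keratinocyte markers 5 were tested, with none called with vehicle and Krt5 higher and Dsp lower with candesartan, at 60.3 to 84.96 summed CPM in Sham + VH and 38.3 to 62.9 in TBI + VH. Dsp, whose levels are given with the cornified envelope genes below, counts in these sums. Of the 6 platelet markers 3 were tested and none was called with vehicle, at 9.94 to 11.3 and 10.4 to 13.8 summed CPM, with Itga2b (3.15 against 1.95 CPM) and Gp9 (0.664 against 0.280 CPM) called higher with candesartan. The 8 endothelial markers, from a cell type in which Tgm2 is known, held 115 to 175 summed CPM in Sham + VH and 108 to 155 in TBI + VH, with none called with vehicle and Pecam1 and Ly6c1 called higher with candesartan.

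The later and more distant injury comparisons of Tgm2 and F13a1 were not used in choosing the genes and were tested. Neither gene was called in any of the 10 tests with vehicle or the 10 with candesartan by edgeR's quasi-likelihood test, at a lowest FDR of 0.810 and 0.343. At an unadjusted p under 0.05 there were 0 and 2, and DESeq2 called none either. The background was 0.298% with vehicle and 0.179% with candesartan in the thalamus at 3 dpi, 0.00583% with vehicle in the hypothalamus at 29 dpi and 0% in the other comparisons of these regions. In the 29 dpi hippocampus, 0.529% of the 16832 genes tested were called with vehicle and 0.356% with candesartan.

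The comparisons that came nearest were those of the 29 dpi hippocampus with candesartan. Tgm2 was 15.1, 10.2, 13.2 and 8.05 CPM in Sham + CD and 13.6, 18.6, 18.4 and 14.1 CPM in TBI + CD (log2 fold change 0.52, SE 0.20, FDR 0.381). F13a1 was 0.961, 1.48, 2.02 and 1.81 CPM in Sham + CD and 2.50, 4.79, 2.52 and 1.57 CPM in TBI + CD (log2 fold change 0.80, SE 0.30, FDR 0.343). The groups overlapped for both genes, and replicate 2 of TBI + CD, with 154 counts of F13a1, stood apart from the rest.

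With vehicle the 29 dpi hippocampus gave log2 fold changes of 0.31 (SE 0.21, FDR 0.810) for Tgm2 and 0.35 (SE 0.31, FDR 0.888) for F13a1. Tgm2 was 14.6, 11.0, 9.67 and 8.50 CPM in Sham + VH and 14.9, 17.5, 10.4 and 12.3 CPM in TBI + VH, and the groups overlapped. In the thalamus and hypothalamus the 8 tests with vehicle gave log2 fold changes from -0.34 to 0.35 and the 8 with candesartan from -0.28 to 0.35.

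Whether the response to injury differed between regions was tested for Tgm2 and F13a1 in vehicle mice where the choice of genes had not used it. None of the 8 differences was called by edgeR (FDR 1.0 each), against 0% of all genes between thalamus and hypothalamus at 3 dpi and 0.00558% at 29 dpi, and 0.0223% and 0.0558% for the hippocampus against thalamus and hypothalamus at 29 dpi, and 1 had an unadjusted p under 0.05. This one was Tgm2 at 29 dpi, whose injury response was 0.65 higher on the log2 scale in the hippocampus than in the thalamus (SE 0.30). DESeq2 called none of the 8.

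The effect of candesartan was the question of the study, and no comparison of the 3 genes between candesartan and vehicle passed the test in edgeR. None of the 12 tests of Tgm2 and F13a1 in sham mice and none of the 14 of all 3 genes in injured mice was called by edgeR, with lowest FDRs of 0.478 and 0.745, and DESeq2 called none. At an unadjusted p under 0.05 there were 0 in sham mice and 1 in injured mice. In the 3 dpi hippocampus the background was 1.5% of genes called in sham mice and 0% in injured mice, and it was 0% in every other region and time. In the injured 3 dpi hippocampus the log2 difference of TBI + CD from TBI + VH was -0.02 for Tgm1 (95% interval -0.77 to 0.73), 0.26 for Tgm2 (-0.11 to 0.62) and 0.41 for F13a1 (-0.16 to 0.99). TBI + VH serves both this comparison and the injury comparison with vehicle.

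**Figure D3:**
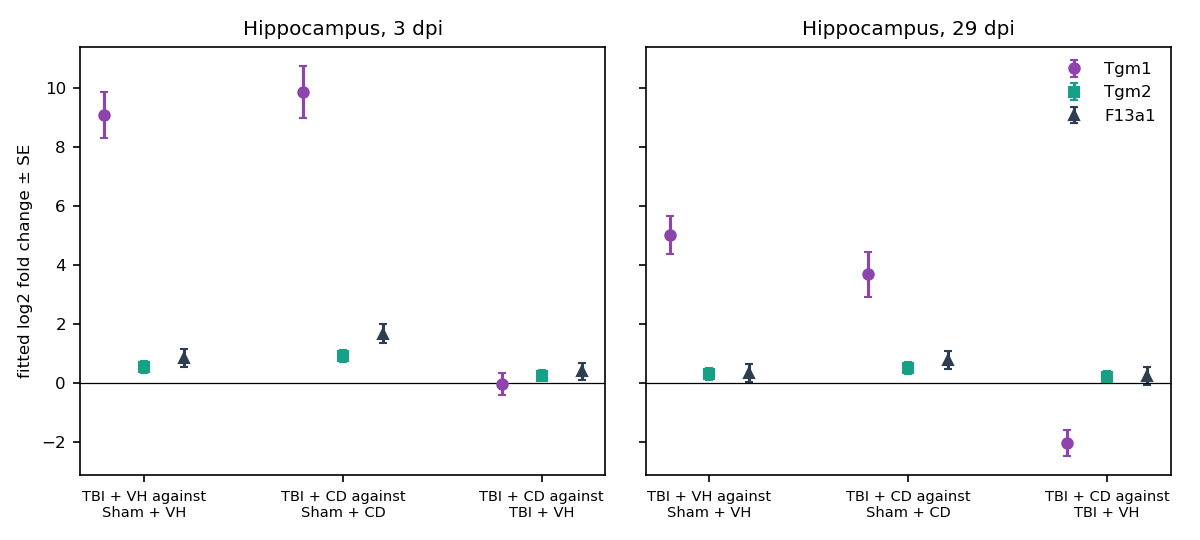
Fitted log2 fold changes with their standard errors in the hippocampus at 3 dpi and 29 dpi, for injury with vehicle, injury with candesartan, and candesartan among injured mice (4 libraries per group). Tgm1 stands at 9.10 and 9.87 after injury at 3 dpi and at 5.03 and 3.69 at 29 dpi, while the candesartan values of all 3 genes lie between -2.005 and 0.41.

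Among the comparisons tested with edgeR, the largest candesartan difference in injured mice was that of Tgm1 in the hippocampus at 29 dpi. TBI + CD held 0.630 ± 0.241 CPM and TBI + VH 2.52 ± 2.0 CPM (SD, n = 4), a log2 difference of -2.005 (SE 0.44) in edgeR. The unadjusted p of this difference was 0.000295 and its FDR over the 16832 genes tested 0.745. It ranged from -2.30 to -1.38 over the libraries left out, and TBI + VH replicate 3, at 5.39 CPM, was the highest of its group. By an exact two-sided permutation test of log2(CPM + 0.05) over the 8 libraries, chosen after the data were seen and 1 of 36 such tests of the 3 genes, p was 0.0571, and the groups touched, with TBI + CD replicate 3 at 0.968 CPM above TBI + VH replicate 2 at 0.909 CPM. The shared reactive astrocyte genes summed to 815 to 2022 CPM in TBI + VH and 729 to 963 CPM in TBI + CD in the same libraries, and the microglia markers to 293 to 317 and 265 to 311 CPM. Their part in the difference was not tested.

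In the thalamus Tgm1 did not pass the filter at 29 dpi, and its levels there went the other way. TBI + CD held 0.244, 0.132, 0.229 and 1.60 CPM, from 5, 4, 6 and 30 counts, and TBI + VH held 0.119, 0.0499, 0.0316 and 0.0329 CPM, from 4, 1, 1 and 1 counts. The groups did not overlap, as for 0.672% of the 16957 genes tested being higher in that comparison. TBI + CD also lay wholly above Sham + CD, at 0.0412, 0, 0 and 0.0368 CPM from 1, 0, 0 and 1 counts, as for 1.99% of genes being higher. An exact permutation test only restates this separation at the edge of detection and is not read. Without replicate 4 the 3 remaining TBI + CD libraries held 4 to 6 counts each, and the lowest of them, at 0.132 CPM, and the highest TBI + VH library, at 0.119 CPM, both held 4 counts, so that their order rests on library depth. Replicate 4 also had 1402 summed CPM of choroid plexus markers, against 19.5 to 55.4 in the others of its group, and 378 summed CPM of microglia markers against 209 to 257. The shared reactive astrocyte genes summed to 227, 259, 394 and 1038 CPM in TBI + CD replicates 1 to 4, against 204 to 322 in TBI + VH and 119 to 238 in Sham + CD. The part of these in the Tgm1 levels was not tested.

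The interaction of candesartan with injury was called for none of the 12 tests of Tgm2 and F13a1 by edgeR (lowest FDR 0.451, 0 with an unadjusted p under 0.05, against a background of 0% of genes), and DESeq2 called none. In the 3 dpi hippocampus the interaction was 0.83 (SE 0.45) for F13a1 and 0.38 (SE 0.27) for Tgm2. There it is the difference between the injury responses with candesartan and with vehicle, which are described above without a test. These values are therefore also read as a description. Tgm1 held 0 to 5 counts in the sham libraries of the hippocampus, and its fits for the interaction and between the sham groups are not read.

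Between the regions of Sham + VH mice, F13a1 was higher in the thalamus than in both other regions at 29 dpi, and Tgm2 was not called in any pair. F13a1 was 3.47, 3.93, 3.43 and 3.03 CPM in the thalamus at 29 dpi. It was 2.40, 1.19, 2.04 and 1.40 CPM in the hippocampus and 2.22, 2.08, 2.03 and 1.54 CPM in the hypothalamus. Every thalamic library lay above every library of the other regions, as for 22% of the 17935 genes tested against the hippocampus and 23.4% against the hypothalamus. The thalamus exceeded the hippocampus by 0.86 on the log2 scale (SE 0.29, FDR 0.0107) and the hypothalamus by 0.77 (SE 0.28, FDR 0.0199), the latter with an FDR of 0.0503 without hypothalamic replicate 4, and the hippocampus and hypothalamus differed by less than their error (log2 difference -0.09, SE 0.30, FDR 0.810).

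At 3 dpi the thalamus and hypothalamus differed by 0.38 for F13a1 (SE 0.27, FDR 0.265), which was not called. F13a1 was 3.56, 3.42, 2.05 and 2.43 CPM in the thalamus and 1.83, 1.47, 1.41 and 2.49 CPM in the hippocampus of Sham + VH mice at that time, and these groups overlapped. The difference between them of 0.67 (SE 0.28, FDR 0.0379) was lost without any of 5 of the 8 libraries, hippocampal replicates 1, 2 and 3 and thalamic replicates 1 and 2, with FDRs up to 0.127. The fits treated regions as independent, although the labels do not say whether 1 mouse gave several of them. Of the 12 tests of Tgm2 and F13a1 between sham regions, 3 were called, no more than the share of all genes. The background is wide, since 40.9% of genes were called between hippocampus and thalamus at 3 dpi and 39.3% at 29 dpi, 46.7% and 45% between hippocampus and hypothalamus, and 28.6% and 32.9% between thalamus and hypothalamus. Border macrophage markers overlapped between the regions, with 16.75 to 24.95 summed CPM in the thalamus at 29 dpi, 20.4 to 28.7 in the hippocampus and 15.8 to 22.6 in the hypothalamus.

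The other genes of the family, and F13b beside them, stayed low. Tgm3, Tgm4, Tgm6 and Tgm7, which act in hair and skin, prostate, brain and less known sites, reached at most 2.68, 1.29, 1.25 and 1.60 CPM in any of the 96 libraries. Tgm5, a further epidermal enzyme, reached 0.177 CPM and was at 0 in 33 libraries, Epb42 (listed under its older symbol) reached 1.54 CPM, highest in the thalamus, and F13b reached 0.0764 CPM with 83 libraries at 0. In the 3 dpi hippocampus 3 of these 7 genes were tested and none was called after injury with either treatment. Tgm7 had 0.409 ± 0.277 CPM in TBI + VH and 0.786 ± 0.128 in Sham + VH (SD, n = 4; log2 fold change -0.89, SE 0.40, FDR 0.177), while Tgm4 stood at -0.53 (SE 0.30, FDR 0.304) and Tgm3 at 0.20 (SE 0.40, FDR 0.813).

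**Figure D4:**
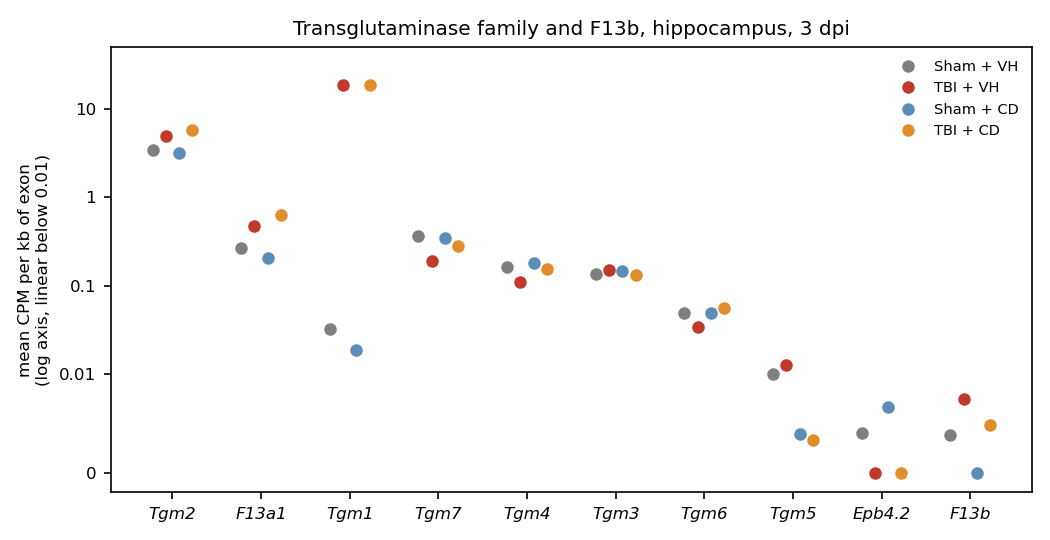
Mean level of 9 transglutaminase family genes and of F13b in the hippocampus at 3 dpi, in CPM per kilobase of exon (log axis, linear below 0.01), 1 point per group of 4 libraries. Tgm1 goes from 0.0328 in Sham + VH to 18.7 in TBI + VH, above Tgm2 at 4.87, and the 7 other genes reach at most 0.365.

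The substrates and partners of these enzymes were followed as lists. Of 24 genes of fibrin formation and removal, 16 were tested in the 3 dpi hippocampus and 7 were called higher and 1 lower after injury with vehicle, with a median log2 fold change of 0.42 against -0.01 over all genes. Of all genes tested there, 8.99% were called higher and 1.72% lower with vehicle, and 14.4% and 5.67% with candesartan. They included F3, tissue factor, and genes of the plasmin system. Serpinf2, the plasmin inhibitor that factor XIII links to fibrin, was 8.09 ± 0.909 CPM in TBI + VH and 0.681 ± 0.279 in Sham + VH (log2 fold change 3.602, SE 0.32, FDR 6.42e-07). Anxa2, a plasminogen receptor, rose by 1.53 (FDR 0.000633) and Plau, the urokinase activator, by 1.11 (FDR 0.00171).

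Plaur, the urokinase receptor, Serpine2 and F3 were also called higher with vehicle, with log2 fold changes of 2.30, 0.35 and 0.39. Of the most abundant genes of the list, Fn1, fibronectin, had 84.9 ± 24.2 against 53.5 ± 11.3 CPM (FDR 0.0831) and Vtn, vitronectin, 55.8 ± 8.28 against 67.3 ± 9.92 CPM (FDR 0.311). F5 was called lower (2.04 against 63.6 CPM, log2 fold change -4.94) and is itself one of the choroid plexus markers, which summed to 186 to 6909 CPM in Sham + VH and 7.16 to 151 CPM in TBI + VH. With candesartan, where 14.4% of genes were called higher, 11 of the 16 were called higher and none lower, among them Fn1 (99.3 against 54.4 CPM, FDR 0.0109), and Vwf, von Willebrand factor (28.0 against 16.7 CPM, FDR 0.0131). No fibrin gene was called between TBI + CD and TBI + VH, where no gene of any kind was.

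Of 14 matrix and cell surface partners of Tgm2, all 14 were tested and 8 were called higher and 1 lower in the 3 dpi hippocampus with vehicle (median log2 fold change 0.57, against 8.99% and 1.72% of all genes called), and 10 higher with candesartan (median 0.64, against 14.4%). Spp1, osteopontin, a transglutaminase substrate, was 73.5 ± 47.0 CPM in TBI + VH and 4.77 ± 2.44 in Sham + VH (log2 fold change 3.98, SE 0.76, FDR 0.00143). Sdc4, a syndecan that binds Tgm2 through its heparan chains, was 131 ± 24.0 against 65.8 ± 8.92 CPM (FDR 1.49e-05), and Itga5, the fibronectin receptor subunit, 6.33 ± 1.87 against 2.35 ± 0.794 CPM (FDR 0.00582). The abundant Lrp1, Mfge8 and Adgrg1, which encode receptors and a matrix adaptor, were not called, with log2 fold changes of 0.18, -0.22 and 0.19. Fbn1, fibrillin, was the gene called lower (log2 fold change -0.52, FDR 0.0122). At 29 dpi Spp1 was the one gene of the list called with each treatment, at 29.3 against 7.79 CPM with vehicle (FDR 0.00253). Of all genes tested in the 29 dpi hippocampus, 0.529% were called with vehicle and 0.356% with candesartan.

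Of 21 cornified envelope and keratinocyte genes, the usual company of Tgm1 in skin, 12 were tested in the 3 dpi hippocampus and 3 were called higher with vehicle (median log2 fold change 0.08, against 8.99% of all genes called higher). These were Sprr1a, a small proline-rich envelope precursor (1.76 ± 1.17 against 0.0223 ± 0.0446 CPM), Cdsn, corneodesmosin (1.68 ± 0.639 against 0.479 ± 0.194 CPM), and Cstb, cystatin B (16.3 ± 1.75 against 12.9 ± 0.552 CPM). The abundant Aloxe3 and Alox12b, lipoxygenases of the skin barrier, were not called, with log2 fold changes of -0.13 and 0.23. With candesartan these 3 and Krt5 were called higher and Dsp, desmoplakin, lower (30.8 against 63.4 CPM). Outside the 3 dpi hippocampus no gene of this list was called in any injury comparison, where at most 0.529% of all genes were called.

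Genes whose group means moved most like those of Tgm1 were named by Pearson correlation of mean log2 CPM over the 24 groups, a description in which the injured 3 dpi hippocampus carries most of the spread. They were Vim (r = 0.98), Apoc2 (0.98), Cd5l (0.97), Msr1 (0.97) and Ptprc (0.97). With Spearman correlation the 5 genes were others, namely Ifi30, Lat2, Gp49a, Emp3 and Tmem37 (0.81 to 0.77). Vim, the filament of reactive astrocytes, went from 40.2 ± 5.25 to 562 ± 193 CPM at 3 dpi and from 35.0 ± 5.32 to 117 ± 34.5 CPM at 29 dpi between Sham + VH and TBI + VH. Cd5l and Msr1 are macrophage genes, and Ptprc encodes the leukocyte antigen CD45. Cd5l was at 0 in all Sham + VH libraries of the hippocampus at both times and at 3.97 ± 2.80 CPM in TBI + VH at 3 dpi.

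For Tgm2 the 5 genes were Vwf (r = 0.95), Tulp3, Ifitm3, Mir692-3 and Tmem252 (0.93 to 0.92 in that order), and Vwf is the endothelial clotting protein. For F13a1 they were Klk6 (0.92), Bmp2k, Fmnl3, Tfeb and Lect1 (0.91 to 0.89). Over the 24 group means Tgm1 and Tgm2 had r = 0.77, which ranked Tgm2 662nd of 16203 genes for Tgm1, and F13a1 had r = 0.38 with Tgm1 and 0.30 with Tgm2.

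Over the deviations of 16 libraries from their own group means, Tgm2 and F13a1 had r = 0.72, ranking 111th of 14952 genes for Tgm2, whereas Tgm1 had r = 0.12 with Tgm2 and 0.26 with F13a1. The genes compared share the dissection and depth of each library, and the values are a description. In the 8 libraries of 3 dpi alone Tgm1 had r = 0.65 with Tgm2 and 0.80 with F13a1.

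**Figure D5:**
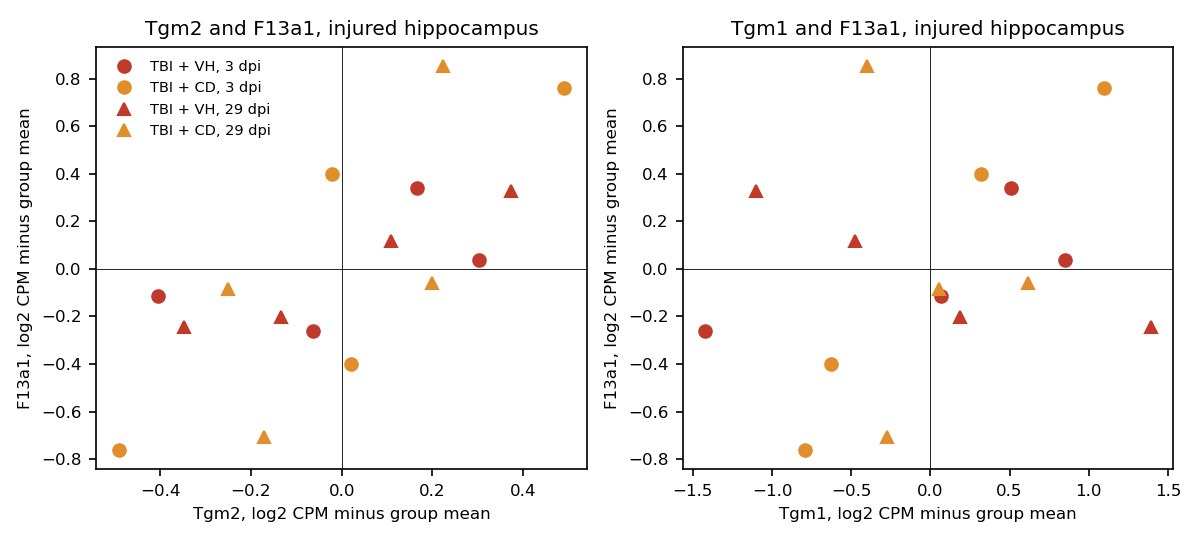
Deviation of each injured hippocampal library from its group mean, in log2 CPM, for Tgm2 against F13a1 (left) and Tgm1 against F13a1 (right), 16 libraries marked by group and time. The correlation is 0.72 on the left and 0.26 on the right.

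The genes whose deviations followed Tgm1 most closely in these 16 libraries were Kif2c (r = 0.96), Mmgt1 (0.96), Kif20a (0.95), Stil (0.94) and Top2a (0.94), of which Kif2c, Kif20a, Stil and Top2a act in cell division. In the injured libraries of 3 dpi alone the 5 genes were others. They were Tlr13, AI506816, Cd68, Cx3cr1 and Inpp5d (r = 0.9971 to 0.9945), and Cx3cr1 is among the microglia markers. Top2a was 20.7 ± 11.95 CPM in TBI + VH and 1.84 ± 0.416 in Sham + VH at 3 dpi, and 2.33 ± 1.51 and 1.963 ± 0.40 CPM at 29 dpi. Tgm2 was followed by Npepl1 (0.91), Vwf (0.90), Vwa1 (0.89), Pbx3 (0.88) and BC031361 (0.85), and F13a1 by Emilin1 (0.89), Mxra8 (0.87), Tgfbi (0.86), Arhgap29 (0.86) and Sepn1 (0.86). Emilin1 and Tgfbi encode matrix proteins, and Tgfbi was 10.1 ± 3.33 CPM in TBI + VH and 5.33 ± 1.90 in Sham + VH at 3 dpi.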

How the data were processed

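Per the labels and the study's methods, the authors made libraries with a stranded mRNA kit from dissected regions of saline-perfused mice and deposited raw counts per gene, made with HTSeq 0.9.1 on mm10 per the submitters' notes; annotation and strand setting are not given in the sources used here. The deposited counts were used as they stand, in 1 table per time point, each with 48 libraries and 63 symbols that occur more than once, none of them among the 3 genes. Every column belonged to a labelled sample. Tests used edgeR 4.0.16 in R 4.3.3 (quasi-likelihood, TMM, its default filter on low counts) with the 16 libraries of a region and time in 1 fit, or the 48 of a time point for comparisons between regions, and Benjamini-Hochberg adjustment over all genes tested. SE is the log2 fold change divided by the square root of the F statistic, and 95% intervals take a normal error. Called genes had an FDR below 0.05 with a log2 fold change beyond 0.32 either way (FDR alone for interactions and differences between regions in response). The script was tested on simulated counts. The exact permutation tests were added after the data were seen. Alternatives were DESeq2 1.42.0, RLE scaling, no filter, a replicate block, leaving out each library, the 8 libraries compared, no fold limit and a choroid plexus covariate.

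Gene positions came from GENCODE on GRCm38, the same assembly as mm10. The 3 genes, the lists and the tests were chosen with earlier results of these data known. Named were the 3 genes, the other family genes, of each list the 4 most abundant tested genes and all called ones where at most 5 were called (marker lists of cell types are given by counts and sums), and the 5 genes most alike each of the 3; further list genes were chosen after their values were seen. One list gene that counts among the calls is not reported here by name. Replicates of a group differed in every pair by more than sampling noise (chi-square per degree of freedom 2.64 or more over 144 pairs).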

Additional observations from a re-analysis of the deposited data

Results flagged for a closer look

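In 2 of the 72 groups of 4 libraries of the 3 genes, 1 library lay far from the other 3 by Dixon's ratio, with about 1 group in 20 expected to do so by chance. Thalamic TBI + CD replicate 4 at 29 dpi held 1.60 CPM of Tgm1 against 0.132 to 0.244 in its group, the library with high choroid plexus and microglia markers described above. Hypothalamic TBI + VH replicate 1 at 29 dpi held 2.98 CPM of F13a1 against 1.60 to 1.71 in its group.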

How the results depend on the processing

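The number of calls among the 3 genes' tests stayed at 0 for injury with vehicle, injury with candesartan, candesartan in sham mice, candesartan in injured mice, the interaction and the difference between regions in the response to injury, with DESeq2, RLE scaling, no filter, the replicate block, each library left out and, where it applied, the 8 libraries compared, no fold limit and the choroid plexus covariate. For sham regions it was 3, and 2 to 3 over the libraries left out and 2 with no filter, where the 3 dpi F13a1 difference reached an FDR of 0.05. The replicate block left 3 calls there and 0 in the other comparisons. Same-numbered libraries of different groups within a region and time correlated above 0.1 in 59 of 144 pairs. They correlated best with their own number in 51 of 144, where 1 in 4 would do so if numbers meant nothing. Such libraries come from different mice, so these values cannot show whether the regions of 1 mouse share a number. The replicate block likewise stands for a number and not for a mouse. No source says what a number shares, and the libraries were not treated as paired. The Tgm1 candesartan difference in the injured 3 dpi hippocampus turned to 0.18 with the choroid plexus covariate and ranged from -0.50 to 0.28 over the libraries left out (0.11, 0.28, 0.18 and 0.21 without TBI + VH replicates 1 and 3 and TBI + CD replicates 1 and 2), and that of F13a1 at 29 dpi ranged from -0.13, without TBI + CD replicate 2, to 0.45. The cause was not tested. The Tgm1 candesartan difference at 29 dpi stayed between -2.30 and -1.38 over all alternatives, at FDRs from 0.178 to 1.0. At 29 dpi F13a1 between thalamus and hypothalamus had an FDR of 0.0503 without hypothalamic Sham + VH replicate 4. Of the 5 genes most alike each of the 3, 0 to 3 stayed among the 5 with Spearman correlation or 3 dpi libraries alone. Sham Tgm1 counts of 0 to 5 limit every fold against them.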
